A study of Macaca mulatta with 24 samples.

Results

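Gene expression in the whole blood of rhesus macaques (Macaca mulatta) was compared between day 7 and day 5 after a total-body dose of 4 Gy. The 6 arrays labelled Day 5 and the 7 labelled Day 7 were taken, 13 of the 24 arrays of the series, and they were paired by replicate number, since the same animals were bled repeatedly. The labels give no treatment other than radiation, which they call X-rays, whereas the study's methods name a cobalt gamma source. The animals were adults of Chinese origin, replicates 1 to 4 being male and 5 to 7 female. Replicates 1, 2, 3, 4, 6 and 7 have both days (4 males, 2 females). Day 7 replicate 5 has no Day 5 partner, so it took no part in the paired differences, and its difference from the Day 5 mean is given apart. Levels given for day 7, and list medians at day 7 against the pre-irradiation mean, do include its array. The other arrays, 7 from before irradiation and 4 from day 3, serve here only as a reference level.

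Radiation at this dose kills lymphocytes and dividing marrow progenitors, and the blood then changes as cells already in circulation age, as marrow output stops and as surviving progenitors start to divide. Neutrophils live briefly in blood and are replaced from the marrow's maturing reserve until it runs out, platelets circulate for longer, immature cells enter the blood when the marrow recovers, and reticulocytes, which carry most of the RNA of the red cell lineage, decline while red cell production is halted. Interferon-stimulated genes encode antiviral effectors induced through the transcription factors STAT2 and IRF9. Cell cycle genes are transcribed mainly in dividing cells, which are rare in normal blood.

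Levels below are log2 processed signals of the scanner software, shifted so that each array has the median of a reference array, and a difference is day 7 minus day 5, averaged over the 6 animals, with its standard error. A level describes a single probe and is not compared between genes. The share of probes well above background was 51.0, 57.1 and 61.2% (lowest, median and highest) on the Day 5 arrays and 48.3, 57.6 and 60.9% on the Day 7 arrays, a paired difference of -1.40 percentage points ± 2.64 (SD, n = 6, exact sign-flip permutation test, two-sided, p = 0.25). The dimmest arrays were Day 7 replicate 2 and Day 5 replicate 2, with median processed signals of 16.7 and 30.9 against a highest value of 106. The files show 6 slides and 2 scan sessions. No slide holds arrays of both days, and in all 6 animals the Day 5 array was scanned in the second session and the Day 7 array in the first, so session and day cannot be told apart within animals. The raw background was lower at day 7 in 6 of 6 animals (45 to 51 against 56 to 61 in units of raw signal, exact p = 0.03125, the smallest that 6 pairs allow). It was 55 on the array of Day 7 replicate 5, which was scanned in the second session. Of 10 spike-in transcripts, added to each sample before labelling, 8 had all Day 5 arrays above all Day 7 arrays, by 1.40 to 2.54 on the log2 scale between the medians. Day 7 replicate 5, scanned in the same session as the Day 5 arrays, still lay below all Day 5 arrays for 9 of the 10. The spike-in a22 had levels of 12.20 to 12.53 on the day 3 arrays and 9.76 to 10.22 on the pre-irradiation arrays, apart from 4.71 on that of replicate 1, so it stood high at days 3 and 5 and low at the other times. The part of the spike-in step in the results was not tested. Defining markers of blood cells were well above background on all Day 5 and all Day 7 arrays for 4 of 4 platelet, 4 of 4 NK cell, 3 of 3 tested T cell, 3 of 3 tested neutrophil and 3 of 4 B cell genes, but for 0 of 3 tested basophil and eosinophil genes.

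At the threshold of the study's methods, an adjusted p under 0.005, limma called 0 of 27133 probes (0%) with the animal as a block, although 8656 probes had an unadjusted p under 0.05. The same probes gave 777 calls with the animal as a random effect and 494 in a fit of all 4 groups. At an adjusted p under 0.05, which is used from here on, 3519 probes differed, 1522 higher (5.61%) and 1997 lower (7.36%) at day 7. Taking each gene by its brightest probe, 1408 of 10815 genes were called, 608 higher (5.62%) and 800 lower (7.40%), and taking any probe of a gene, 848 were higher (7.84%) and 1019 lower (9.42%). All 7 Day 7 arrays lay above all Day 5 arrays for 111 genes (1.03%) and below them for 160 (1.48%). The called rises had a median size of 0.74 and the called falls of 0.96, against 0.31 over all probes tested. Of the rises 276, and of the falls 920, were larger than 1 on the log2 scale. The calls leaned on single animals, with 152 probes called without replicate 1, 704 without replicate 4, 695 without replicate 7, 1513 without replicate 2, 2197 without replicate 6 and 3930 without replicate 3.

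**Figure D1:**
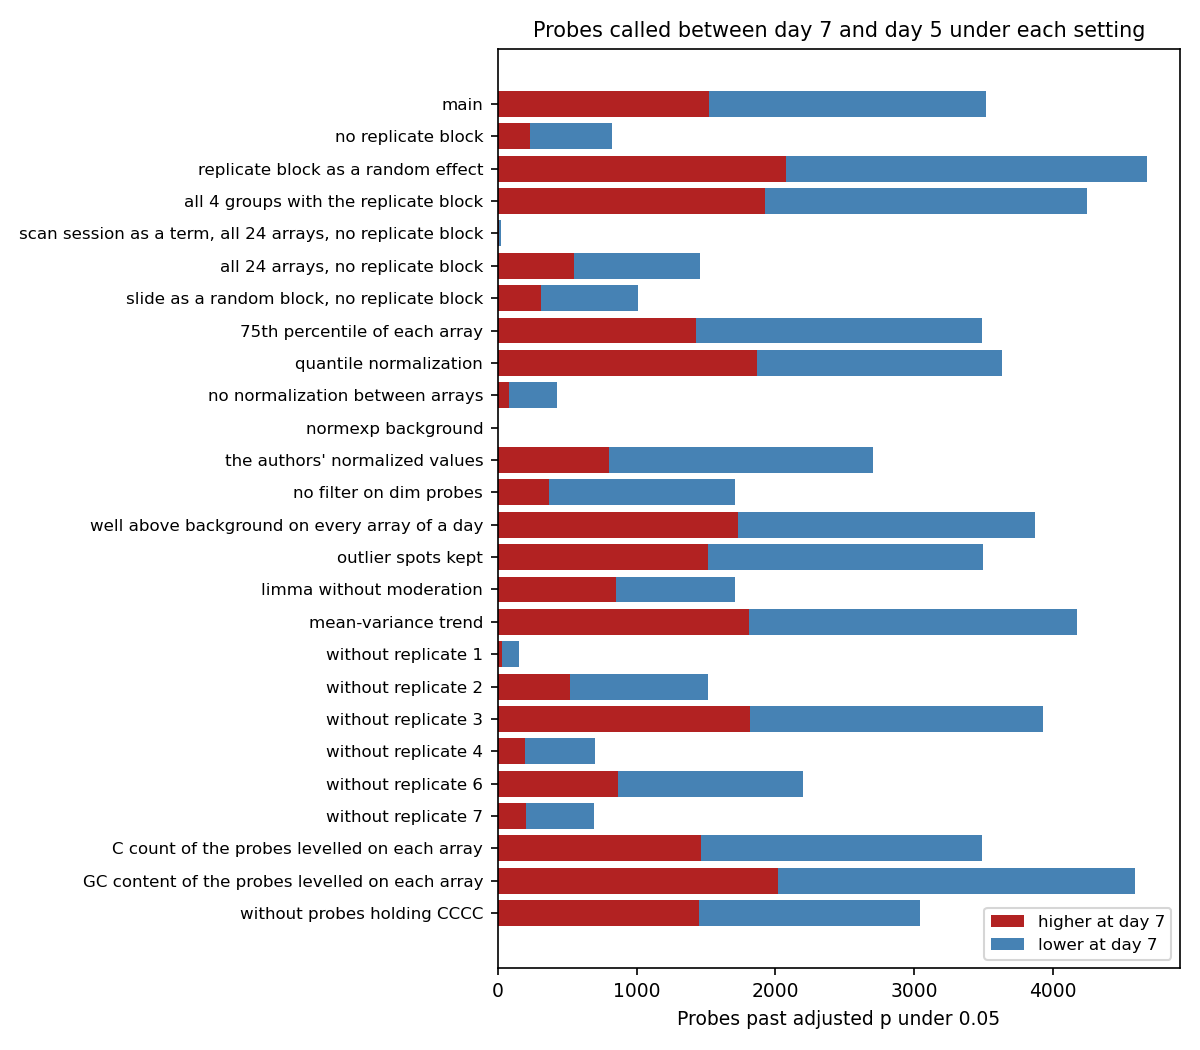
Number of probes with an adjusted p under 0.05 (x axis) in each analysis setting (y axis), split into probes higher (red) and lower (blue) at day 7. The count was 3519 in the paired fit labelled main, 820 without the replicate block and 0 after a normexp background. In the fit of all 24 arrays with no replicate block it was 1456, and 23 with scan session as a term.

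The array of Day 7 replicate 5 took no part in the fit and is given beside the lists as its difference from the mean of the Day 5 arrays. Those Day 5 arrays are the same that entered the calls, so its values are a description and no separate support for them. The pre-irradiation array of the same animal, which shared its slide, differed from the other pre-irradiation arrays by list medians from -0.73 for interferon-stimulated genes to 0.79 for secondary and tertiary granule genes.

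Lists of genes with known roles were read by their counts and medians, beside the median of 0.02 over all genes. Of 981 list genes tested, 170 (17.3%) were called by their brightest probe, 61 higher and 109 lower, and 218 by any probe. Over all 10815 genes tested the brightest probe was called for 1408, 5.62% of the genes being higher and 7.40% lower. Without replicate 1 there were 4 calls, without replicate 7 there were 29, without replicate 4 there were 38 and without replicate 2 there were 60. The 4 calls left without replicate 1 were 1 each in the mitosis, inflammatory, macrophage and stem cell lists, and after a normexp background no list held a call. Scan session was a term only in a fit without the replicate block, in which all 24 arrays took part. Such a fit, added after seeing the data, called 54 list genes without the term, and 0 with it. The lists with over 20% of their genes called lower were interferon-stimulated, platelet, antigen presentation, complement, monocyte and inflammatory genes, and those with over 15% called higher were mitosis, plasma cell, T cell, ribosome assembly and DNA replication genes. In bulk blood, fewer cells of a type and less RNA per cell cannot be told apart.

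**Figure D2:**
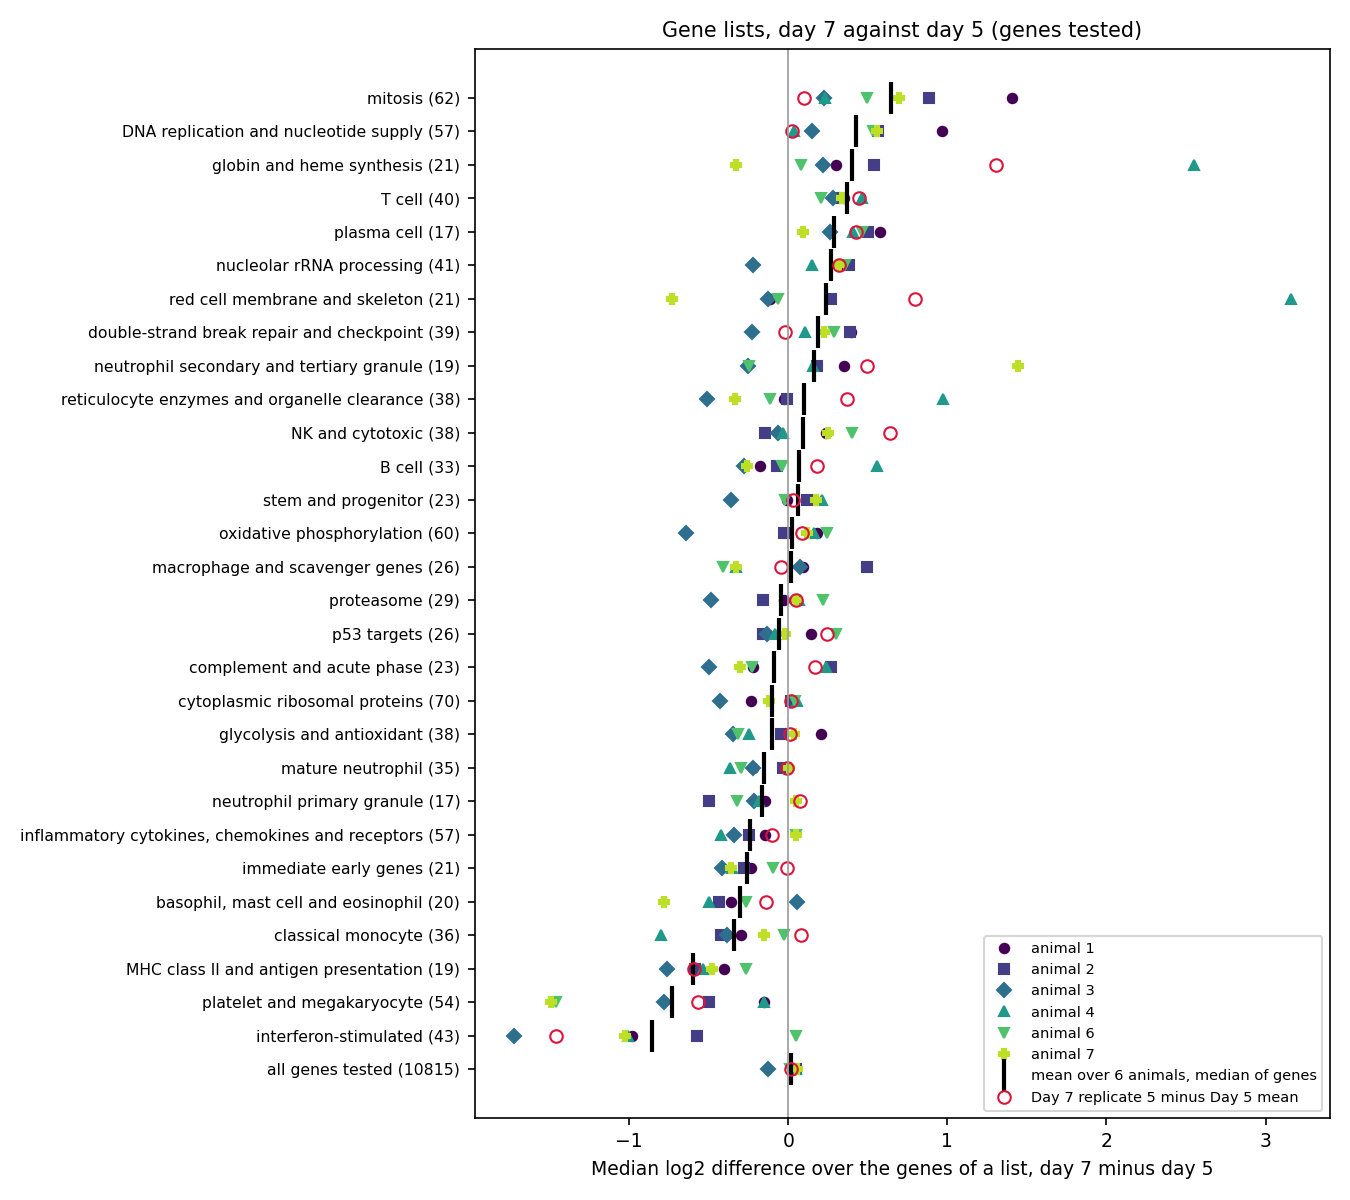
Median log2 difference between day 7 and day 5 over the genes of each list (x axis; list names with the number of genes tested on the y axis). Filled symbols are the 6 animals, black bars the median of the fitted differences and open red circles Day 7 replicate 5 against the Day 5 mean. Interferon-stimulated and platelet genes lie lowest, mitosis genes highest, and the globin and red cell membrane lists spread widest, with animal 4 far to the right.

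The calls among interferon-stimulated genes were all falls. Of 43 tested, 18 fell (41.9%) and 0 rose, and the list's median was -0.85. The animals' medians were -0.99, -0.58, -1.73, -1.01, 0.05 and -1.03 for replicates 1, 2, 3, 4, 6 and 7, so 5 animals lay below 0 and replicate 6 did not. Against the pre-irradiation mean, the list's median was 1.36 at day 5 and 0.36 at day 7. CXCL10, a chemokine that attracts activated T cells, lay at 9.14, 10.34 and 12.91 (lowest, median, highest) on the Day 5 arrays and at 5.34, 9.02 and 10.18 at day 7, the lowest value being that of replicate 2. It fell by 2.28 ± 0.50 on the log2 scale (SE, n = 6, adjusted p = 0.0289), or 4.84-fold on average. All 6 animals were lower, but replicate 6 hardly so, standing 2.29 above the pre-irradiation mean at day 5 and 2.27 at day 7. IFIT3, a partner of the RNA-binding protein IFIT1, had levels of 9.82, 12.76 and 13.19 at day 5 and 8.91, 10.01 and 11.03 at day 7. The IFIT3 groups overlapped, since replicates 2 and 6 at day 5 lay below the highest Day 7 array, and the fall was 1.82 ± 0.36 (adjusted p = 0.0219, lower in 5 of 6 animals). RSAD2, the antiviral enzyme viperin, fell 3.74-fold (adjusted p = 0.0453). The other called members included the antiviral effectors IFIT1, OASL, OAS1, OAS3 and MX2 and the regulators STAT2, IRF7 and IRF9, with differences from -0.75 for IRF9 to -1.62 for IFIT1. On Day 7 replicate 5 the list's median was -1.46 against the Day 5 mean, and 22 of the 43 genes lay below all Day 5 arrays. The pre-irradiation array of that animal was already low on this list, at a median of -0.73 against the other pre-irradiation arrays. Without replicate 1 no member passed the threshold at a median of -0.86, without replicate 4 or 7 there were 2 falls, without replicate 2 there were 5 and without replicate 6 there were 22. In the fit of all 24 arrays with no replicate block, 1 member was called at a median of -0.99, and with scan session as a further term 0 at a median of -1.56.

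The probes behind the CXCL10 and IFIT3 values are shown, the first 30 bases of 60, since each value rests on 1 probe; another CXCL10 probe differed by -1.38 (adjusted p = 0.0843). The files place them at chr5:53565764-53565823 (plus strand) and chr9:88912232-88912291 (plus strand), and the scanner header names the build rheMac2, which could not be checked against a genome here.
CXCL10: ctcccaaggggcccatattctttcagtggc
IFIT3: ttcataagcagaatggagatctgctgcaag

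The calls among antigen presentation genes were also all falls, and the list's median varied little between animals. Of 19 tested, 5 fell (26.3%) and 0 rose, with a median of -0.60 and animals' medians between -0.76 and -0.27. PSMB9, an immunoproteasome subunit, lay at 16.64, 17.12 and 17.68 at day 5 and 15.63, 16.28 and 16.70 at day 7, so only the extremes met, and it fell by 0.88 ± 0.24 (adjusted p = 0.048). TAP1, a subunit of the transporter that loads peptides onto class I molecules, fell by 0.70 ± 0.16 (adjusted p = 0.03), and MAMU-DPA, a class II chain, by 0.72 ± 0.17 (adjusted p = 0.0321). Day 7 replicate 5 had a list median of -0.60 as well. No member was called without replicate 1, 2, 4 or 7, and after a normexp background the median turned to 0.19.

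Platelet and megakaryocyte genes held as many falls as interferon-stimulated genes, 18 of 54 tested (33.3%), and 0 rises. The median was -0.73 and all 6 animals had a median below 0, namely -0.15, -0.50, -0.78, -0.16, -1.46 and -1.49 for replicates 1, 2, 3, 4, 6 and 7. Both females lay at the low end. The list's median against the pre-irradiation mean was 0.69 at day 5 and 0.03 at day 7. PDGFB, a growth factor stored in platelet granules, had levels of 10.09, 10.56 and 10.88 at day 5 and 8.02, 8.94 and 9.50 at day 7 with no overlap. Its spot was left out as an outlier on Day 5 replicate 6, and over the other 5 animals it fell by 1.95 ± 0.25 (adjusted p = 0.0146). PF4, platelet factor 4, lay at 15.46, 16.16 and 16.51 at day 5 and 13.64, 14.89 and 15.93 at day 7, and fell 2.27-fold (adjusted p = 0.0275). PPBP, the precursor of another granule chemokine, fell 2.03-fold (adjusted p = 0.0273), as did the adhesion molecule ESAM (2.76-fold) and cortactin (CTTN, 3.03-fold, well above background on 3 of 7 Day 7 arrays). Both PF4 and PPBP were lower in 6 of 6 animals. The receptor subunit ITGA2B (-0.88 ± 0.39, adjusted p = 0.162) and GP9 (-0.82 ± 0.32, adjusted p = 0.125) did not pass the test. On Day 7 replicate 5 the median was -0.57, with 23 of 54 genes below all Day 5 arrays. Without replicate 1 no member was called, without replicate 7 there were 2 without replicate 2 there were 3, without replicate 4 there were 6, without replicate 6 there were 5 and without replicate 3 there were 13.

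**Figure D3:**
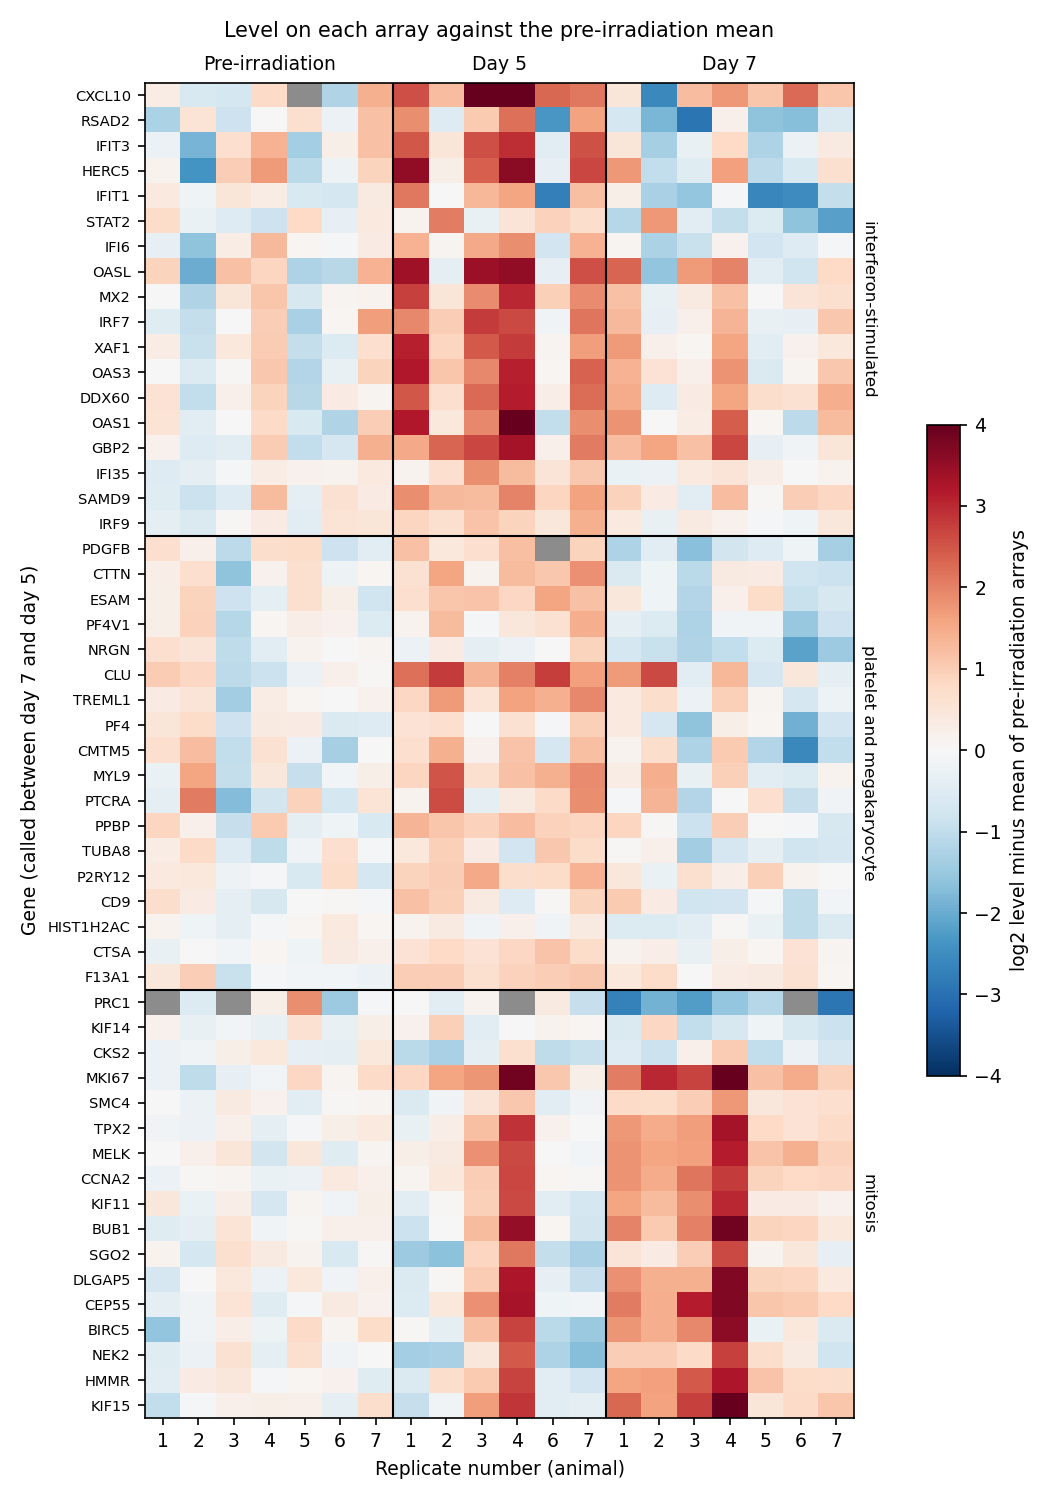
Level of each called interferon-stimulated, platelet and mitosis gene (rows) on the pre-irradiation, Day 5 and Day 7 arrays (columns, replicate numbers), as log2 level minus the mean of the pre-irradiation arrays; colours end at -4 and 4, and grey cells are spots left out as outliers. The interferon-stimulated rows are reddest at day 5 in replicates 1, 3, 4 and 7, and the mitosis rows at day 7, with replicate 4 red on both days.

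Mitosis genes held the most rises of any list in the paired fit. Of 62 tested, 15 rose (24.2%) and 2 fell (3.23%), with a median of 0.65 and animals' medians of 1.41, 0.88, 0.22, 0.23, 0.49 and 0.70 for replicates 1, 2, 3, 4, 6 and 7. Against the pre-irradiation mean the list's median was 0.50 at day 5 and 1.01 at day 7. HMMR, a spindle protein, lay at 4.69, 5.59 and 8.15 at day 5 and 6.15, 7.03 and 8.69 at day 7. The highest value on both days was that of replicate 4, and the level rose in 6 of 6 animals by 1.28 ± 0.21 (adjusted p = 0.0157), as a further probe of the gene did (1.08, adjusted p = 0.0256). KIF15, a mitotic kinesin, rose by 1.66 ± 0.28 (adjusted p = 0.0161) from a level well above background on only 2 of 6 Day 5 arrays. The other rises were of cell cycle regulators and spindle genes such as CCNA2, BUB1, TPX2, BIRC5, KIF11 and NEK2 and of the proliferation marker MKI67 (0.85, adjusted p = 0.0249). Day 7 replicate 5 had a list median of only 0.10 against the Day 5 mean (0.36 between its pre-irradiation array and the others) and 0 of 62 genes above all Day 5 arrays. Without replicate 1 there was 1 rise, without replicate 7 there were 2, without replicates 2, 4 or 6 there were 5, 6 and 8, and without replicate 3 there were 19, with medians from 0.47 to 0.76. With the animal as a random effect mitosis genes held 3 rises at a median of 0.60, against 12 of T cell genes. In the fit of all 4 groups the rises were 3 against 11. Without the replicate block there were 0 at a median of 0.57, and after a normexp background 0 at 0.17.

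The members called lower were KIF14 (-0.61) and PRC1. PRC1, which bundles microtubules in the dividing cell, gave opposite results from its 2 probes. The brightest fell by 2.13 ± 0.25 (adjusted p = 0.0146, 4 animals after outlier spots were left out on Day 5 replicate 4 and Day 7 replicate 6), and the other rose by 1.58 (adjusted p = 0.0157). The probes lie at chr7:70721115-70721174 and chr7:70726566-70726847, both on the minus strand, and their first 30 bases are printed with runs of at least 4 cytosines in capitals. The lower call came from the probe with such a run.
PRC1, probe that fell: gCCCCCCtccagcgcaacttcagcattaat
PRC1, probe that rose: aaagacaactcaagaacaaaaaacagacag

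DNA replication genes held fewer rises than mitosis genes in the paired fit. Of 57 tested, 9 rose (15.8%) and 1 fell, with a median of 0.43 and all 6 animals' medians above 0 (0.04 to 0.97). CCNE1, the cyclin that opens S phase, lay at 7.86, 8.44 and 11.14 at day 5 and 8.89, 9.39 and 11.55 at day 7 and rose 1.94-fold (adjusted p = 0.0213), CDC45, part of the replicative helicase, 1.85-fold (adjusted p = 0.0409) and UHRF1, which maintains DNA methylation at the fork, 1.90-fold (adjusted p = 0.045). Each was higher in 6 of 6 animals. No member was called without replicate 1 or without replicate 7, and there were 4 rises without replicate 2 and 3 without replicate 4. With the animal as a random effect there were 3 rises, as many as among mitosis genes. In the fit of all 4 groups there were 5, against 3 of mitosis genes. In the fit of all 24 arrays with no replicate block there were 0 calls, with a median of 0.40 without and 0.15 with scan session as a term. Of 39 genes of double-strand break repair and checkpoints, 3 rose (7.69%) and 2 fell (5.13%), beside 5.62% and 7.40% of all genes, with a median of 0.18. POLQ, the polymerase of end joining at microhomologies, rose 1.67-fold (adjusted p = 0.0366), and XRCC2, a homologous recombination gene, fell 2.61-fold with no overlap between the days (adjusted p = 0.0146). RAD54B, a helicase of recombination, again fell with its brightest probe, which holds CCCC (-2.86 ± 0.41, adjusted p = 0.0176, 4 animals, well above background on 4 of 7 Day 7 arrays), and rose with the other, which does not (0.87, adjusted p = 0.0186).

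Of 26 targets of p53 tested, 1 rose (3.85%) and 3 fell (11.5%), beside 5.62% and 7.40% of all genes, and the median was -0.06. CDKN1A, the inhibitor of cyclin-dependent kinases, lay at 13.15, 13.79 and 14.33 at day 5 and 12.14, 12.75 and 13.19 at day 7 and fell by 1.08 ± 0.15 (adjusted p = 0.0146), leaving all Day 7 values within or above the pre-irradiation range of 11.31 to 12.19. MDM2, the ubiquitin ligase of p53, fell by 0.86 ± 0.15 (adjusted p = 0.0176). EDA2R, a receptor of the TNF receptor family, rose instead by 0.79 ± 0.14 (adjusted p = 0.0176), from 8.16, 9.67 and 10.55 to 9.24, 10.14 and 10.95, with pre-irradiation levels of 3.23 to 5.94.

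Globin and red cell membrane genes differed most between animals. Of 21 globin and heme synthesis genes 2 rose (9.52%) and 0 fell, with a list median of 0.40. Without replicate 4 the median was 0.17, and there were 0 calls without replicate 1, 2, 4 or 6. Unpaired over all 24 arrays, the median was 0.48 without and 1.25 with scan session as a term. Replicate 4 had a list median of 2.55, whereas the other animals ranged from -0.33 to 0.54. Globin transcripts were depleted in the laboratory from all samples, and the part of that step in the globin levels was not tested. HBG2, a fetal globin whose probes may also bind HBG1 transcripts, lay at 8.02, 11.24 and 13.91 at day 5 and 7.39, 15.22 and 18.61 at day 7, and rose by 3.33 ± 0.77 (adjusted p = 0.032) in 5 of 6 animals, with replicate 7 as the exception. HBB, the adult beta globin, was at 14.71 to 15.78 at day 5 and at 11.78 to 18.30 at day 7, a difference of 0.02 ± 0.82 (adjusted p = 0.988). ALAS2, the first enzyme of heme synthesis in red cells, lay at 9.72, 10.08 and 12.25 at day 5 and 8.40, 13.05 and 17.68 at day 7 and missed the threshold (2.73 ± 0.81, adjusted p = 0.0614, higher in 5 of 6 animals), against 18.05 to 19.20 before irradiation. Of 21 genes of the red cell membrane 0 rose and 1 fell (ADD2, a skeleton protein, -0.75 ± 0.17, adjusted p = 0.0292), and the list's median was 0.23. Replicate 4 again stood apart, at 3.16 against -0.73 to 0.27 in the others, and without it the median turned to -0.32. It was -0.23 after a normexp background, and in the fit of all 24 arrays 0.28 without and 0.96 with scan session as a term. SLC4A1, the anion exchanger, was well above background on 0 of 6 Day 5 and 2 of 7 Day 7 arrays, so it has no fold. Of 38 reticulocyte genes 0 rose and 2 fell (5.26%, beside 7.40% of all genes), among them GFI1B, a transcription factor of red cell and platelet precursors (-1.08 ± 0.23, adjusted p = 0.0262). On Day 7 replicate 5 the globin and heme list lay 1.30 above the Day 5 mean, with 16 of 21 genes above all Day 5 arrays, and its pre-irradiation array was already 0.53 above the others on that list.

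Single neutrophil genes were called in both directions. CA4, a carbonic anhydrase of the cell surface, held the largest rise among named probes well above background on every Day 7 array and higher in all animals. It lay at 8.23, 9.78 and 10.44 at day 5 and 8.99, 12.73 and 14.63 at day 7, above the pre-irradiation range of 6.29 to 8.18 on every array of both days, and rose by 2.55 ± 0.46 (adjusted p = 0.0185, 6 of 6 animals). MMP8, the neutrophil collagenase, lay at 2.11, 3.90 and 6.58 at day 5 and 4.70, 6.99 and 11.67 at day 7, and rose by 2.89 ± 0.60 (adjusted p = 0.0249). Only 2 of 6 Day 5 arrays had it well above background, so the fold of 7.39 rests on dim values. Replicate 7 was the highest at day 7 for both genes. LCN2, an iron-withholding granule protein, rose by 1.37 ± 0.35 with a dimmer probe (adjusted p = 0.0423) and by 1.07 with the brightest (adjusted p = 0.0635). MMP25, a membrane-bound protease, fell by 0.60 ± 0.14 (adjusted p = 0.0365), and LTF, lactoferrin, had a difference of 0.37 ± 0.58 (adjusted p = 0.695). Over 19 secondary and tertiary granule genes the count was thus 1 rise and 1 fall (5.26% each), beside 5.62% and 7.40% of all genes. The median was 0.16, with an outlying animal, replicate 7, at 1.44. Without replicate 7 the median turned to -0.04. Of 17 primary granule genes 0 rose and 2 fell (11.8%). The falls were those of CFD, complement factor D (-1.58 ± 0.34, adjusted p = 0.0271), and RNASE6, an antimicrobial ribonuclease (-1.05 ± 0.20, adjusted p = 0.02). Both are also expressed in monocytes. MPO, the defining primary granule enzyme, had a difference of -0.36 ± 0.20 (adjusted p = 0.259).

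Among 35 genes of mature neutrophils 3 rose (8.57%) and 6 fell (17.1%), beside 5.62% and 7.40% of all genes, with a median of -0.15. CSF3R, the receptor for G-CSF, lay at 13.66, 14.21 and 14.42 at day 5 and 11.76, 12.58 and 13.64 at day 7 without overlap and fell by 1.46 ± 0.22 (adjusted p = 0.0146) against a pre-irradiation range of 11.81 to 12.97. ALPL, the neutrophil alkaline phosphatase, and CLEC4D, a lectin receptor, rose by 1.79 ± 0.41 (adjusted p = 0.031) and 1.61 ± 0.42 (adjusted p = 0.0456). ALPL was well above background on 1 of 6 Day 5 and 4 of 7 Day 7 arrays. CXCR2, a chemokine receptor, had a difference of -0.48 ± 0.16 with its brightest probe (adjusted p = 0.0942), while another fell by 0.88 (adjusted p = 0.04). FCGR3B was not tested.

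**Figure D4:**
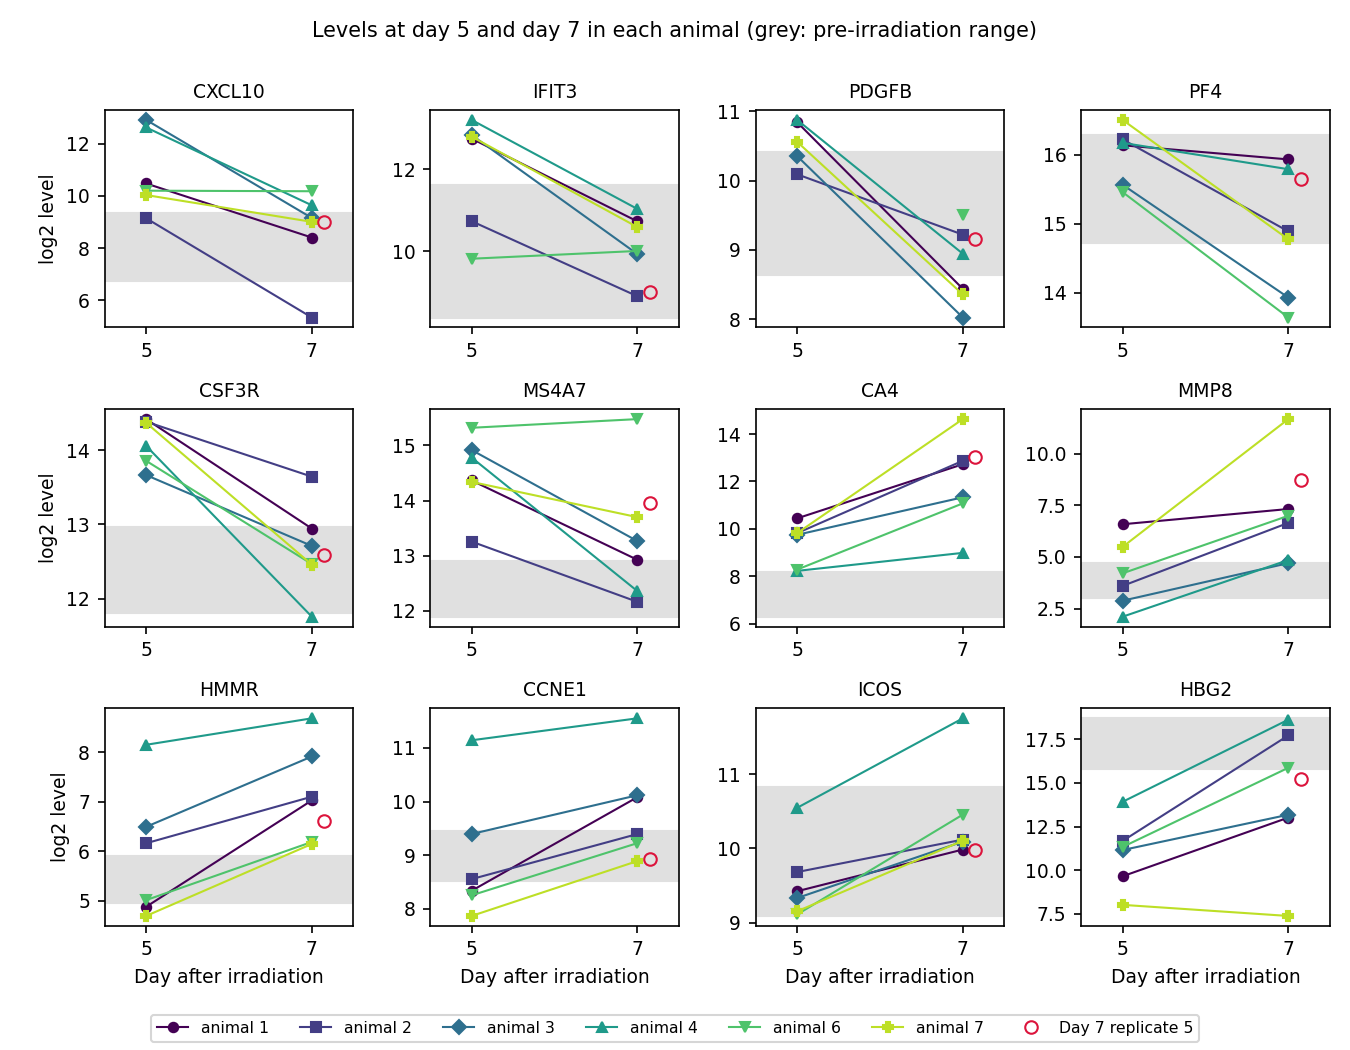
Log2 levels (y axis) of 12 named genes at day 5 and day 7 (x axis); lines join the values of an animal, the open red circle is Day 7 replicate 5 and the grey band is the range of the pre-irradiation arrays. For PDGFB the Day 5 spot of replicate 6 was left out, and HBG2 spans 7.39 to 18.61 at day 7.

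The calls among monocyte genes were all falls. Of 36 tested, 8 fell (22.2%) and 0 rose, with a median of -0.34 and animals' medians between -0.80 and -0.03. AIF1, an actin-binding protein of monocytes, lay at 12.68, 13.89 and 15.79 at day 5 and 10.94, 12.64 and 13.98 at day 7, and fell by 1.65 ± 0.32 (adjusted p = 0.0213), and its other probe fell by 1.41. MS4A7 fell by 1.18 ± 0.31 (adjusted p = 0.0434) and FGL2, a prothrombinase, by 1.04 ± 0.25 (adjusted p = 0.0371), each in 5 of 6 animals. The defining marker CD14 missed the threshold (-0.88 ± 0.31, adjusted p = 0.0936) and VCAN had a difference of 0.52 ± 0.18 (adjusted p = 0.092), whereas CSF1R and FCGR3A were not tested. On Day 7 replicate 5 the list's median was 0.08. In the fit of all 24 arrays with no replicate block there were 2 falls at a median of -0.35, and with scan session as a term 0 at -0.04. After a normexp background the median turned to 0.33 with 0 calls. Without replicate 1 there were 0 falls and without replicate 2, 4 or 7 there was 1 each. Of 26 macrophage genes 1 rose (3.85%) and 4 fell (15.4%) around a median of 0.01, beside 5.62% and 7.40% of all genes. SDC3, a proteoglycan, fell 3.02-fold (adjusted p = 0.0302) and CETP, a lipid transfer protein, 2.35-fold (adjusted p = 0.028), while GPNMB, a glycoprotein of phagocytes, rose 2.16-fold (adjusted p = 0.0287).

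T cell genes held more rises than falls, and the list's median varied little between animals. Of 40 tested, 7 rose (17.5%) and 2 fell (5%), with a median of 0.37 and animals' medians between 0.21 and 0.46. ICOS, a costimulatory receptor, lay at 9.11, 9.38 and 10.55 at day 5 and 9.98, 10.11 and 11.75 at day 7, replicate 4 being the highest on both days, and rose 1.84-fold (adjusted p = 0.0194). MAL, a membrane protein of naive T cells, rose 2.08-fold (adjusted p = 0.0146), but it was well above background on 3 of 6 Day 5 arrays. THEMIS, CD40LG and IL7R rose by 0.73, 0.61 and 0.55. CD3D had a difference of 0.32 ± 0.13 (adjusted p = 0.136), and CD3E was not tested. On Day 7 replicate 5 the list's median was 0.44, and on its pre-irradiation array -0.36 against the others. Without replicate 1 there were 0 calls at a median of 0.36, and without replicate 4 or 7 there was 1.

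Of 33 B cell genes tested, 1 rose (3.03%) and 4 fell (12.1%), beside 5.62% and 7.40% of all genes, with a median of 0.07. MS4A1, the B cell antigen CD20, lay at 5.85 to 8.07 at day 5 and 6.44 to 8.58 at day 7, a difference of -0.05 ± 0.48 (adjusted p = 0.958), against 10.92 to 12.17 before irradiation. CR2, the complement receptor of mature B cells, rose by 1.11 ± 0.21 (adjusted p = 0.0208) and its other probe by 1.14 (adjusted p = 0.0208). CD24, also made by neutrophils, fell by 1.52 ± 0.26 (adjusted p = 0.0176), and CD83, an activation antigen, by 1.05 ± 0.18 (adjusted p = 0.017). Of 17 plasma cell genes 3 rose (17.6%) and 0 fell, with a median of 0.29 and every animal above 0. There were 0 rises without replicate 1, 2 or 4, 1 without replicate 6, 2 without replicate 7 and 3 without replicate 3. In the authors' values there was 1. TNFRSF17, the plasma cell receptor BCMA, lay at 3.53, 5.60 and 6.20 at day 5 and 3.50, 7.05 and 8.07 at day 7 and rose 2.47-fold (adjusted p = 0.0228), with replicate 7 low on both days. TXNDC5 and SEC11C, which serve the secretory pathway, rose 1.55-fold and 1.49-fold. JCHAIN, which joins secreted antibodies, had a difference of 0.64 ± 0.27 (adjusted p = 0.152). Of 38 NK and cytotoxic genes 1 rose, PTGDR, a prostaglandin receptor (0.89 ± 0.18, adjusted p = 0.0244), and 0 fell, with a median of 0.09. KLRD1 and GNLY, defining markers of NK cells, had differences of 0.27 ± 0.17 (adjusted p = 0.303) and -0.19 ± 0.16 (adjusted p = 0.438).

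Of 20 genes of basophils, mast cells and eosinophils 3 fell (15%) and 0 rose, with a median of -0.30. HDC, which makes histamine, fell 2.72-fold (adjusted p = 0.0266), the transcription factor GATA2 2.47-fold (adjusted p = 0.0182) and PRG3, an eosinophil granule protein, 1.99-fold (adjusted p = 0.0224), each in 6 of 6 animals. CPA3, a mast cell and basophil protease, missed the threshold (-0.97 ± 0.34, adjusted p = 0.0984), and MS4A2 had a difference of 0.28 ± 0.43 (adjusted p = 0.685). Of 23 stem and progenitor genes 2 rose (8.70%) and 4 fell (17.4%), beside 5.62% and 7.40% of all genes. GATA2 is listed there too, and MEIS1, a homeobox factor of stem cells and megakaryocytes, fell by 1.42 ± 0.22 (adjusted p = 0.0146), whereas MYB, which sustains dividing progenitors, rose by 0.60 ± 0.16 (adjusted p = 0.0453). AVP, a peptide gene also transcribed in stem cells, was not well above background on any Day 5 array and was so on 4 of 7 Day 7 arrays, which makes it at least 1.62-fold higher (adjusted p = 0.0146). CD34 was not tested.

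Genes of ribosome assembly held more rises than falls. Of 41 genes of rRNA processing 7 rose (17.1%) and 1 fell, with a median of 0.27 and 5 of 6 animals above 0. The fall was that of RRP1 (-0.76, adjusted p = 0.0149), whose other probe rose by 0.63 (adjusted p = 0.0347). NOP56, a core protein of small nucleolar particles, lay at 11.24, 11.34 and 11.84 at day 5 and 11.80, 12.29 and 13.06 at day 7 and rose by 1.01 ± 0.18 with its brightest probe (adjusted p = 0.0177), while its others differed by 0.61 (adjusted p = 0.0301) and 0.07 (adjusted p = 0.79). PNO1, a factor of the small subunit, rose by 0.91 ± 0.18 without overlap (adjusted p = 0.023). Of 70 ribosomal protein genes 1 rose (RPL5, 0.57 ± 0.15, adjusted p = 0.0423) and 1 fell (RPS19, -0.54 ± 0.13, adjusted p = 0.0373). The other probes of RPL5 differed by 0.12 and 0.33 (adjusted p = 0.752 and 0.25) and that of RPS19 by -0.15 (adjusted p = 0.429). Quantile normalization turned the RPS19 difference to 0.0088. Leaving out replicate 1 ended all calls of the rRNA processing list. That list held 1 rise without replicate 4 or 7, 2 without replicate 2, 4 without replicate 6 and 9 without replicate 3. Of 60 oxidative phosphorylation genes and 29 proteasome genes limma called 0 in either direction, with medians of 0.03 and -0.04, and 10 and 3 had an unadjusted p under 0.05.

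Inflammatory genes fell more often than they rose, 12 against 3 of 57, with a median of -0.24. CXCL1, a neutrophil chemokine, fell by 1.35 ± 0.17 (adjusted p = 0.0146) from 4.55, 5.85 and 6.22 to 2.44, 4.76 and 5.63, and was well above background on 2 of 7 Day 7 arrays. IL1B, the cytokine interleukin 1 beta, lay at 9.88, 10.79 and 11.62 at day 5 and 8.41, 9.90 and 10.88 at day 7, and fell 2.40-fold (adjusted p = 0.0428, lower in 5 of 6 animals), against a pre-irradiation range of 8.22 to 9.55. Without replicates 1, 2, 4 and 7 in turn the falls numbered 1, 4, 2 and 3, and without replicate 3 the median was -0.11. After a normexp background it turned to 0.22. Of 21 immediate early genes 4 fell (19%) and 0 rose, with a median of -0.26 that became 0.18 after normexp. Over all 24 arrays, with no replicate block, it was -0.27 without and -0.01 with scan session as a term. ATF3, a stress-induced transcription factor, fell by 1.39 ± 0.28 (adjusted p = 0.0237) and its other probe by 1.24 (adjusted p = 0.0171), FOSB by 0.94 ± 0.18 (adjusted p = 0.0217) with 1 of its 2 probes, and PPP1R15A, which restores translation after stress, by 0.78 ± 0.15 without overlap (adjusted p = 0.0215). Of 23 complement and acute phase genes 1 rose and 6 fell (26.1%), with a median of -0.09. The falls numbered 0 without replicate 1, 2 without replicate 2 and 1 without replicate 4 or 7, and the median was -0.34 without replicate 1 and -0.46 in the authors' values. Over all 24 arrays, with no replicate block, it was -0.04 without and 0.12 with scan session as a term. HAMP, the iron hormone hepcidin, fell by 1.86 ± 0.33 (adjusted p = 0.0177). Of 38 glycolysis and antioxidant genes 2 rose (5.26%) and 4 fell (10.5%), beside 5.62% and 7.40% of all genes. SOD2, the mitochondrial superoxide dismutase, lay at 18.43, 18.48 and 18.78 at day 5 and 16.17, 17.25 and 18.06 at day 7 without overlap, a fall of 1.46 ± 0.26 (adjusted p = 0.0176), whereas its other probe differed by -0.25 (adjusted p = 0.273).

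Beyond the lists, genes were named among called probes that were well above background on each of the higher day's arrays and, as a condition of the choice, moved one way in all 6 animals. The 12 largest such rises ran from 1.31 to 2.55 and the 12 largest such falls from -2.31 to -3.67. HBG2 (3.33) and RAD54B (-2.86) did not meet the condition on animals. The rises included LGR4, a receptor for R-spondins (1.61 ± 0.32, adjusted p = 0.0219, no overlap), TP63, a transcription factor of the p53 family (1.61 ± 0.26, adjusted p = 0.0153), TET1, which oxidizes methylcytosine (1.46 ± 0.29, adjusted p = 0.0223), the replication-dependent histone HIST1H1A (1.45 ± 0.21, adjusted p = 0.0146) and SLC16A1, a lactate transporter (1.42 ± 0.31, adjusted p = 0.0276). LGR4 and TET1 were well above background on 3 of 6 Day 5 arrays, TP63 on 4 and SLC16A1 on 5. The falls included CYP2G2, a cytochrome P450 (-3.67 ± 0.74, adjusted p = 0.0237), FOXA2, a transcription factor of endoderm (-2.49 ± 0.59, adjusted p = 0.0351), IPO13, a nuclear import receptor (-2.48 ± 0.38, adjusted p = 0.0146), DEFB1, a beta defensin (-2.45 ± 0.21, adjusted p = 0.0127), and SIGLEC10, an inhibitory receptor (-2.31 ± 0.46, adjusted p = 0.0227). CYP2G2 was well above background on 4 of 7 Day 7 arrays and FOXA2 on 5, so the sizes of their falls rest on dim values. CABP5, a calcium-binding protein, was well above background on all Day 5 arrays and on none at day 7, so it was at least 3.07-fold lower. COL3A1, a fibrillar collagen, fell with 1 probe (-2.54 ± 0.58, adjusted p = 0.0307, well above background on 3 of 7 Day 7 arrays) while its other probes, the brightest among them, differed by 0.59 to 0.88 (adjusted p = 0.767 to 0.858).

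The base composition of the probes moved with the calls. The probes have 60 bases, with a median of 12 cytosines over all tested, 10 among rises and 14 among falls. The share of probes called higher went down from 10.6% of those with 0 to 8 cytosines to 1.96% of those with 19 or more, and the share called lower went up from 4.41 to 12.1%. A run of CCCC stood in 14.0% of all probes tested, 6.24% of the rises and 21.1% of the falls. Among 43 bright falls (below -1.5, mean level over 11) it stood in 55.8%, against 13.9% of all tested probes of that brightness. Animals differed here, since the median difference of probes with 19 or more cytosines was 0.63 in replicate 3 and -0.58 in replicate 6. Over 955 genes with a probe holding CCCC and one without, the first was the lower in 49.0% and the median gap between them was 0.01. Of 105 genes in which a probe holding CCCC was called lower, another probe without it was called lower in 37 and higher in 3, PRC1, RAD54B and RRP1. Levelling the cytosine count on each array, an alternative chosen after seeing the data, gave 3491 calls, and leaving out all probes with CCCC gave 3044 of 23341. Among the genes described here, the probes of CDKN1A, MDM2, ADD2, PDGFB, CTTN, MMP25, PRG3, PSMB9, CXCL1, PPP1R15A, HAMP, SIGLEC10, COL3A1, IPO13 and APPL2 fell and hold CCCC, as do those of PRC1, RAD54B and RRP1 that fell. Those of HBG2, ALPL, PTGDR and PRRG2, one of the 12 largest rises, rose and hold it. A further probe missed the threshold for the called genes ADD2 (-0.32), CD24 (-0.64), FGL2 (-0.37), HMMR (1.16), MAMU-DPA (-0.66), MDM2 (-0.72), MEIS1 (-0.89), PSMB9 (-0.78) and SLC16A1 (0.94), with adjusted p from 0.0696 to 0.794. The part of the base composition in single calls was not tested.

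**Figure D5:**
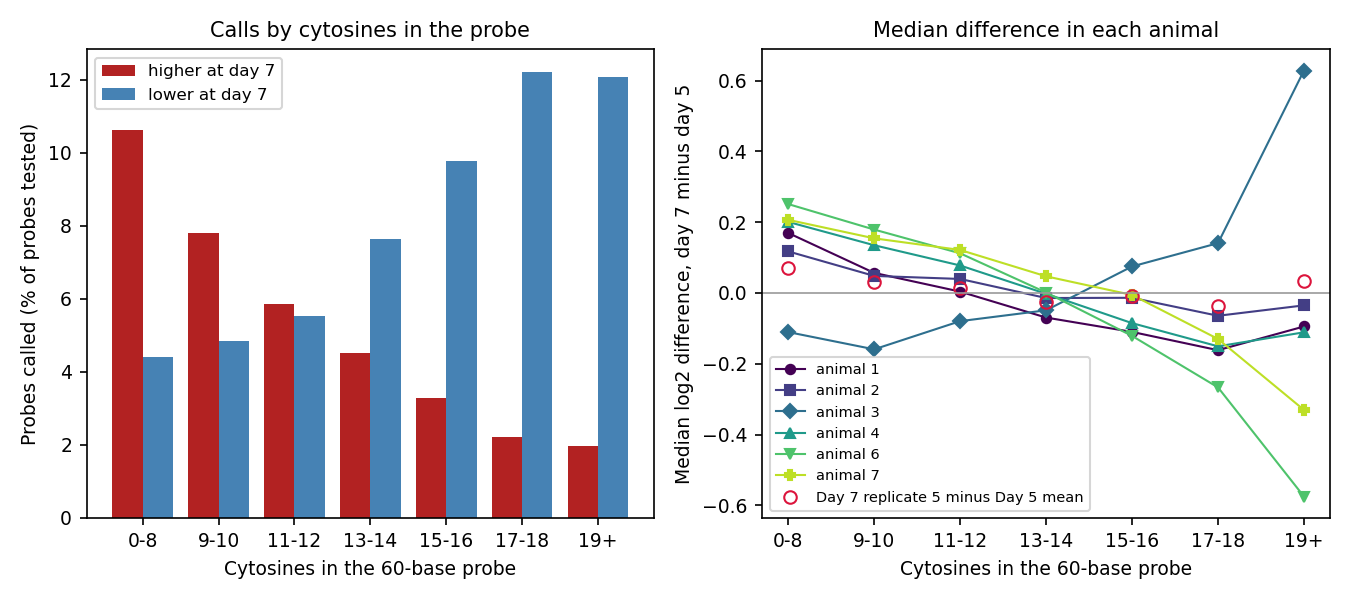
Left, percent of probes called higher (red) or lower (blue) at day 7 by the number of cytosines in the 60-base probe; right, the median log2 difference of the probes in each class for the 6 animals (lines) and for Day 7 replicate 5 against the Day 5 mean (open circles). Falls grow more frequent with cytosines, from 4.41 to 12.1%, and replicate 3 runs against the other animals.

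The falls of IPO13 and APPL2, an endosomal adaptor, came from the stretches below, in which runs of at least 4 cytosines are in capitals. APPL2 fell by 2.38 ± 0.35 with the probe shown first (adjusted p = 0.0146) and differed by 0.10 with the other (adjusted p = 0.736). The positions in the files are chr1:46891626-46891685 (plus strand) for IPO13 and chr11:106308350-106308409 and chr11:106311068-106312234 (minus strand) for APPL2.
IPO13: ccatCCCCacccaCCCCttctcttcaccct
APPL2, probe that fell: agcccactCCCCCatccctcctctctatga
APPL2, other probe: ggagaagaatctctgagtacatacattttt

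The difference between the days was also compared between the 4 males and the 2 females with both arrays. With limma's interaction of day and sex, 0 of 27133 probes passed an adjusted p under 0.005 (0%) or under 0.05 (0%), the lowest adjusted p being 0.249, and 2782 had an unadjusted p under 0.05. The platelet list had medians of -0.42 in males and -1.53 in females and the interferon list of -1.11 and -0.52, differences that no single probe passed.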

How the data were processed

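Blood RNA was taken into PAXgene tubes, globin-depleted and hybridized by the authors to one-colour (Cy3) Agilent rhesus 4x44K arrays, as the labels and array design state, whereas the methods name a human array. The deposited scanner files hold spot intensity from Agilent Feature Extraction (10.7 in the labels, 12.0.2.2 in the file headers), background-subtracted and detrended within each array. The deposited log2 values of the authors, normalized to a median array, were an alternative; their array medians were 7.36 to 7.70 and they correlated at 1.00 with the levels used here, which sets their scale. Here log2 processed signals were shifted to the median array, flagged outlier spots left out and spots of a probe averaged. A probe was tested where the scanner software flagged it above background on 4 or more of the 24 arrays (27133 of 43603 probes). Symbols came from the scanner output or, for 777 probes, through RefSeq accessions, and 19806 probes stayed unnamed.

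The days were fitted with limma 3.58.1 (R 4.3.3; lmFit, eBayes, Benjamini-Hochberg over all probes tested) with the animal as a fixed block. Same-numbered arrays deviated together in all 6 pairs (correlation of their deviations from the day means 0.16 to 0.65), and 5 of 6 correlated best with their own number, replicate 3 being the exception. The planned threshold, adjusted p under 0.005, gave no calls, so the planned looser threshold of 0.05 was used for description. Genes were named by rule: the 12 largest rises and falls that were flagged above background on each array of the higher day and moved one way in all 6 animals, and the 3 largest calls of each of 29 gene lists, or else its first members tested; other called members named from the lists were chosen after their values were seen. Members and lists were chosen with earlier results of these data known. A probe below background on all arrays of a day was given as a bound, against the lowest signal well above background on each array. Depth on arrays is signal over background, and the number of animals limits the precision. Alternatives were other normalizations, filters, blocks and variance models, a term for scan session, and each animal left out. No genome was used, so positions are those in the files. Some called members counted in the text are not reported here by name.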

Additional observations from a re-analysis of the deposited data

Results flagged for a closer look

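Single samples stood apart from their group, by the gap to the nearest value over the group's range, in 13 of 217 groups examined, and about 1 in 20 would do so by chance. Replicate 4 stood above the other animals in the median difference of 4 lists: globin and heme synthesis (2.55), red cell membrane and skeleton (3.16), reticulocyte enzymes and organelle clearance (0.97) and B cell genes (0.56). Replicate 7 did so for secondary and tertiary granule genes (1.44), and replicate 3 lay below the others for oxidative phosphorylation genes (-0.64). Among single genes, TNFRSF17 was low in replicate 7 on both days (3.53 at day 5 and 3.50 at day 7), NOP56 was high on Day 5 replicate 4 (11.8) and CXCL1 low on Day 5 replicate 3 (4.55). At day 7, CETP was high in replicate 6 (10.5), ICOS high in replicate 4 (11.8) and CXCL10 low in replicate 2 (5.34). The spike-in transcripts, which no comparison used, differed between the days, with a median log2 processed signal of 12.1 on the Day 5 arrays for the spike-in a22, while its highest value on the Day 7 arrays was 10.01.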

How the results depend on the processing

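At an adjusted p under 0.005 the paired fit gave 0 calls. At that threshold, the animal as a random effect gave 777, all 4 groups in 1 fit 494, no normalization between arrays 107, a filter requiring signal on every array of a day 14, a mean-variance trend 9 and no replicate block 1, and leaving out each animal gave 0 to 0. Without that block, the slide as a random block gave 1, all 24 arrays 2 and all 24 arrays with a term for scan session 5. The looser threshold of 0.05 gave 3519, and the fits below, combined with it after seeing the data, are at that threshold. Pairing mattered: without the replicate block 820 probes and 34 list genes were called instead of 3519 and 170. Also without that block, the slide as a random block gave 1012 probes and 40 list genes, all 24 arrays 1456 and 54, and all 24 arrays with scan session as a term 23 and 0. In paired fits, no normalization 426 and 23, a normexp background 0 and 0, no filter on dim probes 1711 and 71, and limma without moderation 1708 and 65. Leaving out each animal gave 152 to 3930 probes and 4 to 182 list genes. The share of calls that were higher was 43.3% and became 51.4% with quantile normalization, 29.6% in the authors' values, 21.6% without the filter and 19.2% without normalization. After normexp the interquartile range of the arrays ran from 0.46 to 4.08, against 4.27 to 4.79 otherwise, and 21 of 92 called named genes changed sign: LGR4 (-0.24), JMY (-0.37), SLC16A1 (-0.12), DEPDC1B (-0.25), MDN1 (-0.081), PRRG2 (-0.29), KIF15 (-0.48), HMMR (-0.31), MMP25 (0.23), ALPL (-0.24), TNFRSF17 (-0.16), MAL (-0.54), AVP (-0.15), RPS19 (0.43), PNO1 (-0.34), RRP1 (0.20), PSMB9 (0.072), TAP1 (0.19), PPP1R15A (0.087), PGD (0.22) and ALDOA (0.26). In the fit of all 24 arrays with scan session as a term and no replicate block TET1 (-0.0065), DEPDC1B (-0.17), ADD2 (0.29), EPOR (0.16) and FOSB (0.40) did, and with quantile normalization RPS19 (0.0088). The cause was not tested. In the other settings every named gene that could be fitted kept its sign, though between 7 of 92 (without replicate 1) and 92 (75th percentile, trend, outlier spots kept) kept their call. Of 29 list medians, normexp moved 16 by more than the animals' spread, scan session 6, quantile normalization 5, the authors' values 2, no dim filter 1 and leaving out replicate 7 1.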
